A study of Mus musculus with 10 samples.

Results

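Complexes II to V of the respiratory chain are built largely from proteins encoded in the nucleus, and the RNA of these subunits was compared between cardiomyocytes from mice with both alleles of Actn2 floxed for deletion and cardiomyocytes from mice with 1 floxed allele. Members were chosen by a rule on gene names: Sdha to Sdhd (complex II), names starting with Uqcr (complex III), Cycs (cytochrome c), names starting with Cox4i, Cox5, Cox6, Cox7 or Cox8 (complex IV), and names starting with Atp5 except Atp5s and Atp5sl (complex V, the ATP synthase). The rule found 46 of the 23337 genes in the table: 4 for complex II, 8 for complex III, Cycs, 18 for complex IV and 15 for complex V. Of these, 44 passed the filter on low counts and were tested among 11870 genes. The 2 that did not pass were Cox7b2, with 0 to 8 counts in each library, and Cox8c, with 0 counts in all 10 libraries.

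Alpha-actinin-2, the product of Actn2, crosslinks actin filaments at the Z-disc of the sarcomere. Mice whose Actn2 alleles were both floxed (Actn2-FF, here the knockouts, 5 animals) were compared with controls carrying 1 floxed and 1 normal allele (Actn2-F+, here the heterozygotes, 5 animals). Both groups received AAV9-cTNT-Cre at postnatal day 1, at 3.6×10⁸ viral genomes per gram of body weight, so the controls also received virus and Cre and kept 1 normal allele. The cTNT promoter drives Cre in cardiomyocytes. At postnatal day 14 the heart cells were freed by collagenase perfusion, sorted by flow cytometry and sequenced from amplified cDNA.

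The respiratory chain sits in the inner mitochondrial membrane, where electrons from NADH and succinate pass through complexes I and II to complex III, then by cytochrome c to complex IV, which reduces oxygen. Complexes III and IV pump protons as they do so, and complex V lets the protons flow back to make ATP. Heart muscle draws most of its ATP from this pathway, and several complex IV subunits exist as a heart and skeletal muscle isoform beside one found in most tissues.

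The subunit RNAs were lower in the knockouts as a group. At an adjusted p below 0.05 (edgeR's quasi-likelihood test, Benjamini-Hochberg over all tested genes), 27 of the 44 tested members fell and 0 rose. Among all genes tested, 8.64% fell and 10.2% rose. Without regard to the test, 43 of 44 members had a negative log2 fold change, and the median was -0.44 beside 0.0023 over all tested genes. In 21 members every knockout lay below every heterozygote, a pattern seen in 6.32% of all tested genes. In 0 members every knockout lay above every heterozygote, against 8.41% of all tested genes. Summed over all members, the level was 67302 ± 4239 CPM (counts scaled to a common library size) in the heterozygotes and 47388 ± 3382 CPM in the knockouts (SD, n = 5 each). Unscaled, these genes took a mean of 6.54% and 4.86% of all counts in the libraries of each group. Because these are bulk libraries, fewer cells of a type and less RNA per cell cannot be told apart.

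**Figure D1:**
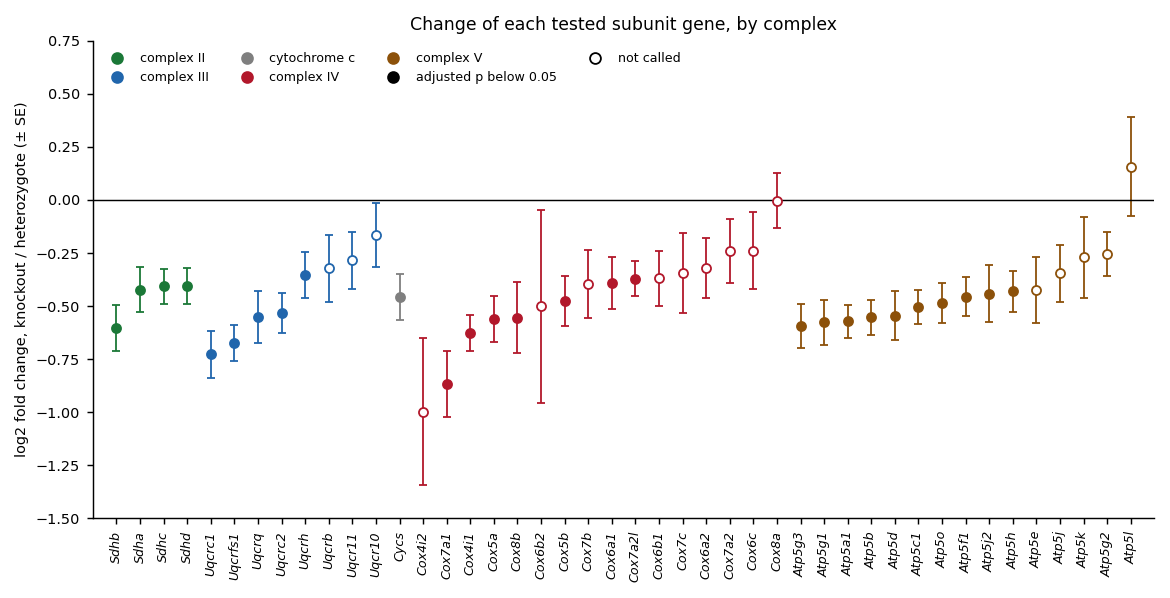
Log2 fold change, knockout over heterozygote, of each of the 44 tested members, with bars of 1 SE, grouped by complex; filled points passed the test and open points did not. Atp5l is the only point above 0, and all 4 complex II genes passed.

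The libraries held 8086656 to 25237696 counts in the heterozygotes and 9265270 to 16892340 in the knockouts. Actn2 itself stood at 3181 ± 358 CPM in the heterozygotes (2677 to 3474) and 1217 ± 55.3 CPM in the knockouts (1145 to 1286), a log2 fold change of -1.39 (adjusted p = 3.48e-07, edgeR), with no overlap. Cardiomyocyte markers summed to a mean of 92651 CPM in the heterozygotes and 87669 CPM in the knockouts, and 1 of the 6, Tnni3, fell. The 4 adult globin genes among the erythroid markers were at 0 in all libraries. As reads that map to several places are dropped by default, zeros of paired gene copies do not show that erythroid RNA was absent. The remaining erythroid marker, Alas2, had means of 0.625 CPM in the heterozygotes and 0.413 CPM in the knockouts. Summed over 6 genes, endothelial markers ran from 369 to 549 CPM in the heterozygotes and from 241 to 409 CPM in the knockouts, and 1 of the 6, Egfl7, fell (-0.65, adjusted p = 0.00612). Immune markers ran from 7.55 to 14.0 CPM in the heterozygotes and from 4.16 to 5.96 CPM in the knockouts, and 1 of the 2 tested fell. Fibroblast markers had means of 163 and 167 CPM and those of smooth muscle and pericytes 98.8 and 75.9 CPM, with 0 called in either list. With the mean log2 level of the endothelial markers as a covariate, 16 members fell in place of 27, beside 434 genes of all those tested in place of 1025. The members' folds were about as large in that fit, with medians of -0.40 under 600 bases and -0.52 from 600 bases, against -0.36 and -0.50 without the covariate.

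Short transcripts differed between libraries of the same group, which touches many small subunits. Across 109 genes under 600 bases that are no members, the median deviation from each gene's mean (log2) was 0.30 and 0.32 in heterozygotes 4 and 5 and between -0.15 and -0.05 in heterozygotes 1 to 3. In the knockouts it was lowest in knockout 2, at -0.43, and lay between -0.11 and 0.18 in the others. Members under 600 bases followed the same libraries, at 0.39 and 0.51 in heterozygotes 4 and 5 and -0.49 in knockout 2. Without those 3 libraries, a choice made after seeing the data, 19 members fell and 0 rose, 18 of them at least 600 bases long. The part of transcript length in the results below was not tested beyond these values and the length-adjusted fit given with them.

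**Figure D2:**
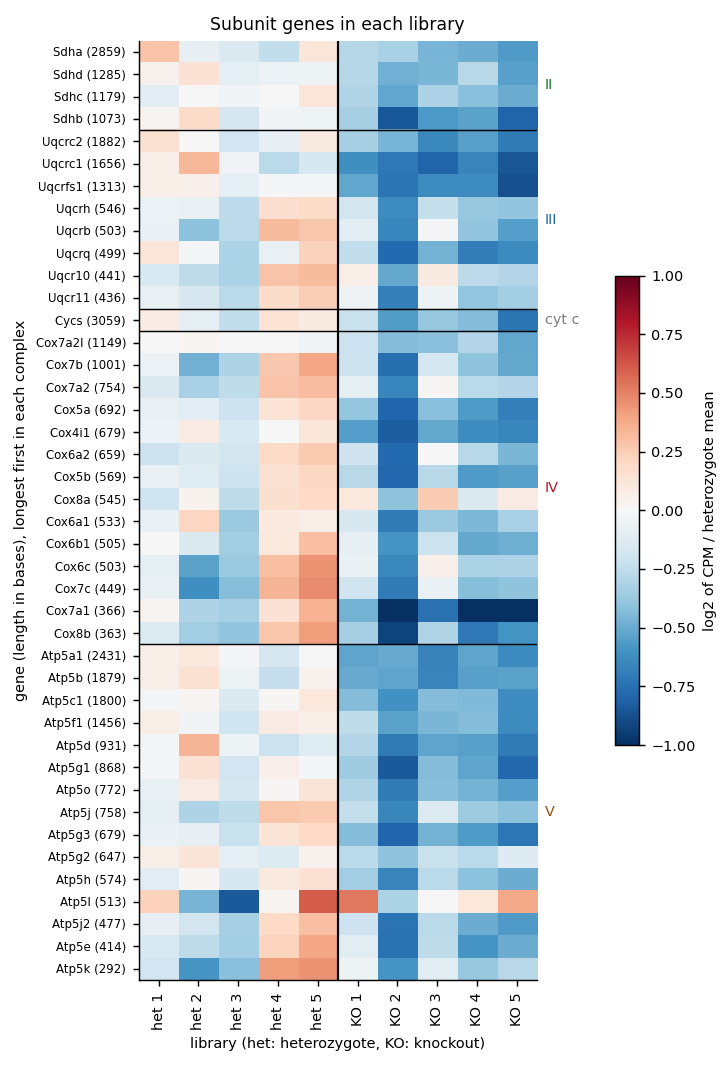
Log2 CPM of the 42 tested members averaging 10 CPM or more in the 10 libraries, relative to each gene's heterozygote mean. Members are in rows by complex, and colours saturate at 1 in either direction. In 21 of the 42 rows every knockout is below every heterozygote. For members under 600 bases knockout 2 has the lowest median.

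Promoter sequence was read for the members that RefSeq start sites cover (assembly GRCm38.p6, 36 of 46 members), as windows from 250 bases before to 50 bases after the start. A set of 4 short motifs were searched on both strands. The NRF1 core GCATGCG, bound by nuclear respiratory factor 1, was in 8 of the 36 windows (22.2%) and in 3.58% of all 32851 windows. The ETS core CCGGAAG, bound by GABP among others, was in 11 (30.6%, against 8.86% of all windows). The estrogen-related receptor core AAGGTCA was in 5 (13.9%, against 4.72%), and the YY1 core AAGATGG in 3 (8.33%, against 6.34%). At least 1 of the motifs was in 18 of the 36 windows, against 21.4% of all windows, with base composition not matched. These motifs can overlap, and a match is a run of letters in a window, not a measured site. The start site used for Atp5f1, 1 of the 3 members with the YY1 core, lay 985 bases from the end of the gene model that was counted. For 30 of the 36 members the last 30 bases of a window were found in a transcript of the gene.

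Below are 6 stretches of 150 bases before the RefSeq start, shown because their genes carry the results below and differ in these motifs. They read 5′ to 3′ along the gene's own strand, with motif letters in capitals. Cycs lies at chr6:50566570-50566719 (minus strand) and holds the NRF1 core on both strands. Sdhb, at chr4:140961121-140961270 (plus strand), holds it once. Sdhd, at chr9:50603850-50603999 (minus strand), has the ETS core on the opposite strand. Outside the printed stretch, the searched window of Sdhb also holds the ETS core and that of Sdhd the estrogen-related receptor core. Atp5g3, at chr2:73911327-73911476 (minus strand), has the estrogen-related receptor core, also on the opposite strand. Neither Cox7a1, at chr7:30184021-30184170 (plus strand), nor Cox8b, at chr7:140900447-140900596 (minus strand), has any of the 4 motifs in the stretch. The start site of Cycs used here is 95 bases, and that of Atp5g3 32 bases, from the end of the gene model that was counted.
Cycs: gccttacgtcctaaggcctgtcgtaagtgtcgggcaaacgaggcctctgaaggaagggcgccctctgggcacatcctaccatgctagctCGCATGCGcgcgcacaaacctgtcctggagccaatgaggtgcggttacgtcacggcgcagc
Sdhb: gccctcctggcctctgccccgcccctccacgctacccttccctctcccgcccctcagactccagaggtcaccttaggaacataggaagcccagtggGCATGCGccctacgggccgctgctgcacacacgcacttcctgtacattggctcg
Sdhd: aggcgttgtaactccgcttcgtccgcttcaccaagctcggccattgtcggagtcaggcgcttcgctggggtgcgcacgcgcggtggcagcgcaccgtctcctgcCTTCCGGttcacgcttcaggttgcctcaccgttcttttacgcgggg
Atp5g3: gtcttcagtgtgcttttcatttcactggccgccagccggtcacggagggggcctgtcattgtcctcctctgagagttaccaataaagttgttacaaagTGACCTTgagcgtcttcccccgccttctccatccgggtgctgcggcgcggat
Cox7a1: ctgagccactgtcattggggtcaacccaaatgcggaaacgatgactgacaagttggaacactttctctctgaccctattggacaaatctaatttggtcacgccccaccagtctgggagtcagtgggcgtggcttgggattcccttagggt
Cox8b: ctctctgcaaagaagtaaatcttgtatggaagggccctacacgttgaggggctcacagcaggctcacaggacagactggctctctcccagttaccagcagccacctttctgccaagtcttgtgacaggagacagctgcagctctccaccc

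Complex II, succinate dehydrogenase, is the only complex of the chain made wholly from nuclear genes, and it also works in the citric acid cycle. All 4 of its subunit genes fell, and in all 4 the groups did not overlap. Their summed level was 6379 ± 509 CPM in the heterozygotes and 4640 ± 361 CPM in the knockouts (SD, n = 5 each), or 72.7%. Sdhb encodes the iron-sulfur subunit (chr4:140961271-140979192 on the plus strand, mm10) and had the largest change. In heterozygotes 1 to 5 it was counted at 1603, 1799, 1396, 1541 and 1525 CPM, and in knockouts 1 to 5 at 1249, 875, 1057, 1088 and 904 CPM. The highest knockout, at 1249 CPM, stayed below the lowest heterozygote, at 1396 CPM, and the log2 fold change was -0.60 (SE 0.108, adjusted p = 0.00140). Sdha, the flavoprotein that oxidises succinate, fell by 0.42 on the log2 scale (adjusted p = 0.0121). The membrane anchors Sdhc and Sdhd fell by 0.41 (adjusted p = 0.00351) and 0.40 (adjusted p = 0.00430), so the 3 remaining genes changed by nearly the same amount. With the endothelial covariate Sdhc (-0.41, adjusted p = 0.0572) and Sdhd (-0.37, adjusted p = 0.0872) no longer passed, at similar folds.

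Complex III passes electrons from ubiquinol to cytochrome c. Of its 8 members 5 fell, 3 of them with no overlap, and the median log2 fold change was -0.44. The summed level went from 11116 ± 706 CPM to 7540 ± 671 CPM, or 67.8% of the heterozygotes. Uqcrc1 encodes a core subunit (chr9:108936648-108949641 on the plus strand). Its levels were 4504, 5422, 4192, 3577 and 3814 CPM in the heterozygotes and 2813, 2624, 2464, 2715 and 2373 CPM in the knockouts. The log2 fold change of Uqcrc1 was -0.73 (SE 0.109, adjusted p = 0.000369), and the groups were separated by a gap wider than the whole range of the knockouts. Uqcrfs1 encodes the Rieske iron-sulfur protein, which takes electrons from ubiquinol. It stood at 2038, 2020, 1831, 1926 and 1935 CPM in the heterozygotes and 1361, 1174, 1259, 1260 and 1060 CPM in the knockouts, a log2 fold change of -0.67 (SE 0.0837, adjusted p = 8.04e-05). The other core subunit, Uqcrc2, fell by 0.53 (adjusted p = 0.00149).

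The 5 small subunits of complex III, all with gene models under 600 bases, included 2 that fell, and their median was -0.32. Uqcrq, which lies beside cytochrome b, changed by -0.55 (adjusted p = 0.00570), and Uqcrh, the hinge protein near cytochrome c1, by -0.35 (adjusted p = 0.0359). Values for Uqcrb, Uqcr11 and Uqcr10 were -0.32 (adjusted p = 0.176), -0.28 (adjusted p = 0.161) and -0.16 (adjusted p = 0.492), none past the threshold. Uqcrh lost its call in 6 of the 10 fits that each left out 1 animal (heterozygote 1, 4 or 5 or knockout 2, 4 or 5), with adjusted p up to 0.0898, and had -0.17 without the 3 libraries. Uqcrq lost its call only without the 3 libraries. The haem-carrying subunit of the same complex, Cyc1, has a name outside the rule and fell by 0.68 (adjusted p = 0.00119).

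Cytochrome c carries electrons between complexes III and IV and also takes part in apoptosis when released. Cycs (chr6:50562563-50566474 on the minus strand) stood at 680.5, 605, 544, 707 and 687 CPM in the heterozygotes and 554, 437, 496, 477 and 389 CPM in the knockouts. It fell, with a log2 fold change of -0.46 (SE 0.108, adjusted p = 0.00913), but the highest knockout was above the lowest heterozygote. Its call was lost with the endothelial covariate (-0.38, adjusted p = 0.164) and without the 3 libraries named above (-0.35, adjusted p = 0.102).

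Complex IV, cytochrome c oxidase, had the most members. Of 16 tested members 7 fell, 5 with no overlap, and the median log2 fold change was -0.39. Summed levels were 13714 ± 2152 CPM in the heterozygotes (11502 to 16544) and 10143 ± 1430 CPM in the knockouts (8182 to 11695), which overlapped. Subunits 4 and 5, which lie against the catalytic core, are encoded by Cox4i1, Cox5a and Cox5b, and all 3 fell. Cox4i1 (chr8:120668290-120674209 on the plus strand), the common isoform of subunit 4, was at 2658, 2937, 2494, 2774 and 3002 CPM in the heterozygotes and 1892, 1570, 1949, 1799 and 1763 CPM in the knockouts, a log2 fold change of -0.63 (SE 0.0858, adjusted p = 0.000175). The lowest heterozygote, at 2494 CPM, stood well above the highest knockout, at 1949 CPM. Cox5a, which with Cox5b lies at the matrix side of the complex, was at 1591, 1543, 1449, 1842 and 1933 CPM in the heterozygotes and 1280, 966, 1252, 1128 and 1041 CPM in the knockouts, a log2 fold change of -0.56 (SE 0.107, adjusted p = 0.00227). Cox5b was at 648, 625, 591, 756 and 786 CPM and 562, 395, 562, 461 and 469 CPM, a log2 fold change of -0.48 (SE 0.117, adjusted p = 0.0109). Neither gene overlapped between the groups, though knockouts 1 and 3, at 562 CPM each, came close to the lowest heterozygote for Cox5b, at 591 CPM. Cox5b lost its call with the endothelial covariate (-0.52, adjusted p = 0.0847) and without the 3 libraries (-0.28, adjusted p = 0.121).

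Among 7 other common subunits of complex IV, Cox6a1, Cox6b1, Cox6c, Cox7a2, Cox7b, Cox7c and Cox8a, 1 fell. This was Cox6a1, at 287, 350.0, 234, 324 and 315 CPM in the heterozygotes and 271, 186, 234, 222 and 242 CPM in the knockouts, a log2 fold change of -0.39 (SE 0.122, adjusted p = 0.0386) with overlapping ranges. Cox6b1, which faces the cytochrome c side, was at 1481, 1332, 1158, 1584 and 1813 CPM and 1374, 979, 1269, 1033 and 1049 CPM, and its -0.37 (adjusted p = 0.0591) fell just short of the threshold. The log2 fold changes of those that did not pass ran from -0.40 for Cox7b (adjusted p = 0.104) to -0.0035 for Cox8a (adjusted p = 0.988). Cox6a1 kept its call when heterozygote 3 or knockout 1 was left out but not when any of the other 8 animals was, and adjusted p reached 0.0942 in the others. Cox7a2l, which encodes a factor joining complexes III and IV, varied least of all members among the heterozygotes. It was at 118, 119, 117, 118 and 115 CPM in them and at 101, 87.1, 88.0, 96.1 and 82.0 CPM in the knockouts, with no overlap. The log2 fold change was -0.37 (SE 0.0827, adjusted p = 0.00616). With the endothelial covariate Cox7a2l no longer passed (-0.31, adjusted p = 0.145).

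Rare isoforms were near the limit of counting. Cox4i2, the isoform of subunit 4 known from lung and from oxygen-sensing cells, had 3.19, 2.95, 2.69, 6.77 and 1.87 CPM in the heterozygotes and 1.98, 2.06, 1.37, 2.26 and 1.13 CPM in the knockouts. Heterozygote 4 was far above the others, the ranges overlapped, and the log2 fold change of -0.998 (SE 0.347, adjusted p = 0.0597) missed the threshold. It passed without heterozygote 5 (-1.15, adjusted p = 0.0349), and was -0.63 without heterozygote 4 and -0.12 with the endothelial covariate. Cox6b2, the testis isoform of subunit 6b, was at 1.85, 2.95, 1.28, 1.89 and 1.97 CPM in the heterozygotes and 1.35, 1.07, 1.66, 0.103 and 2.55 CPM in the knockouts, and its log2 fold change was -0.50 (adjusted p = 0.488). Neither Cox8c nor Cox7b2, both known from testis, reached a level that could be compared.

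For 3 complex IV subunits the members include a heart and skeletal muscle isoform and its common partner, and the muscle isoform passed the test for 2 of the 3. For subunit 7a, the muscle isoform Cox7a1 (chr7:30184171-30186030 on the plus strand) had the largest change of any member that fell. It stood at 547, 433, 427, 592 and 684 CPM in the heterozygotes and 386, 248, 320.0, 254 and 263 CPM in the knockouts, a log2 fold change of -0.87 (SE 0.154, adjusted p = 0.00139). Its partner Cox7a2 stood at 758, 667, 703, 1018 and 1039 CPM and 785, 533, 846, 695 and 684 CPM, with overlapping ranges and a log2 fold change of -0.24 (SE 0.149, adjusted p = 0.290). For subunit 8, the muscle isoform Cox8b (chr7:140898942-140900446 on the minus strand) was at 494, 428, 413, 660.2 and 726 CPM in the heterozygotes and 432, 286, 443, 332 and 360.3 CPM in the knockouts. Cox8b fell by 0.55 (SE 0.168, adjusted p = 0.0331), with knockouts 1 and 3, at 432 and 443 CPM, above the 2 lowest heterozygotes. Dropping a single animal ended the Cox8b call in 5 of 10 cases (heterozygote 4 or 5 or knockout 2, 4 or 5; adjusted p up to 0.0857), and the fold was -0.18 without the 3 libraries. Its partner Cox8a (chr19:7215158-7217616 on the minus strand) was at 263, 309.7, 254, 338 and 347 CPM and 326, 229, 361, 273 and 319.8 CPM, with group means of 302 CPM each. For subunit 6a, the muscle isoform Cox6a2 stood at 1433, 1495, 1457, 1891 and 1982 CPM and 1433, 962, 1661, 1361 and 1204 CPM, and its log2 fold change of -0.32 (adjusted p = 0.134) did not pass.

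The balance within each pair was then taken inside each library, as the muscle isoform's share of the pair's counts per base of gene model. Cox7a1 made up 56.9 ± 2.03% of the subunit 7a pair in the heterozygotes (54.5 to 59.8%) and 46.0 ± 3.35% in the knockouts (43.0 to 50.3%; SD, n = 5 each). The difference was -10.9 percentage points, with no overlap (exact permutation test over the 10 animals, two-sided, p = 0.00794, adjusted over the 3 pairs 0.0119). Cox8b made up 72.5 ± 3.35% of the subunit 8 pair in the heterozygotes (67.5 to 75.8%) and 64.8 ± 1.34% in the knockouts (62.9 to 66.6%). That difference was -7.71 points, also with no overlap and the same exact p = 0.00794 (adjusted 0.0119), the smallest that 252 arrangements allow. Cox6a2 held 81.4 ± 2.58% and 82.1 ± 2.10% of the subunit 6a pair, a difference of 0.625 points (exact p = 0.698). In a single library the 95% Wilson interval of a share was narrow beside these differences, for example 49.4 to 51.3% for Cox7a1 in knockout 1, and it covers counting error only. A p above the threshold does not show that the 6a pair was balanced alike in both groups. Without the 3 libraries with unusual short transcripts, the differences were -12.2 points for Cox7a1 and -6.02 points for Cox8b, both at an exact p = 0.0571, the smallest that 4 against 3 animals allow.

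**Figure D3:**
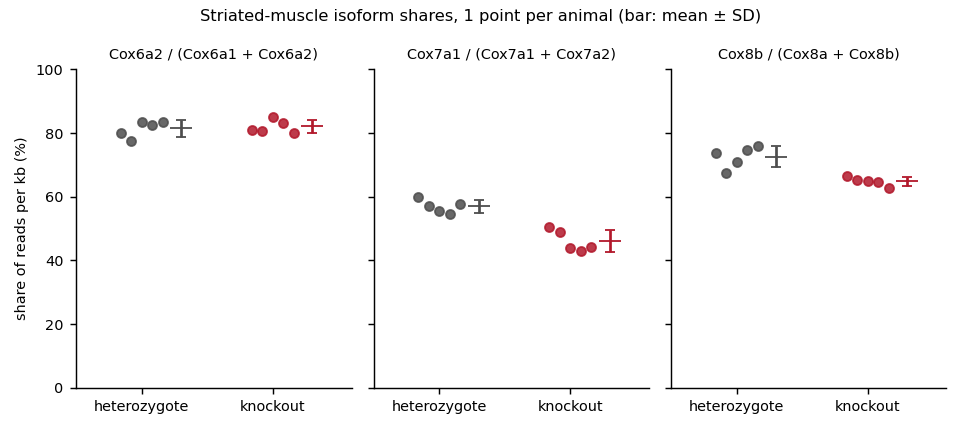
Share of the muscle isoform in each of 3 complex IV isoform pairs (percent of the pair's counts per base), 1 point per animal, with the group mean and SD. The knockouts lie below all heterozygotes for Cox7a1 and Cox8b and overlap them for Cox6a2.

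Complex V held the most abundant members. Summed levels were 35449 ± 2021 CPM in the heterozygotes (32913 to 37428) and 24594 ± 1153 CPM in the knockouts (23530 to 26374), or 69.4%, with no overlap. Of 15 members 10 fell, 9 with no overlap, and the median log2 fold change was -0.46. Atp5b, the catalytic beta subunit (chr10:128083307-128090388 on the plus strand), had the highest level per kilobase of gene model of all members, at 6773 CPM per kilobase in the heterozygotes and 4620 in the knockouts. Its CPM were 13307, 14123, 12271, 10873 and 13060 in the heterozygotes and 8988, 8849, 8068, 8734 and 8770 in the knockouts. The knockouts were closely grouped and well below every heterozygote, and the log2 fold change was -0.55 (SE 0.0827, adjusted p = 0.000377). The alpha subunit Atp5a1, also of the catalytic head, was at -0.57 (adjusted p = 0.000169). Of the central stalk, the gamma subunit Atp5c1 was at -0.50 (adjusted p = 0.000600) and the delta subunit Atp5d at -0.55 (adjusted p = 0.00444). The epsilon subunit Atp5e, under 600 bases long, had -0.42 (adjusted p = 0.0718) and did not pass.

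The rotor ring that turns as protons pass is made of subunit c, which 3 genes encode as the same mature protein. Atp5g3 (chr2:73908450-73911294 on the minus strand) gave the most RNA of the 3. It was at 2847, 2816, 2554, 3280 and 3418 CPM in the heterozygotes and 2204, 1720, 2144, 2011 and 1806 CPM in the knockouts, a log2 fold change of -0.59 (SE 0.102, adjusted p = 0.00111). Atp5g1 changed by -0.58 (adjusted p = 0.00179). The groups did not overlap for either gene, while Atp5g2, at group means of 21.9 and 18.3 CPM, changed by -0.25 (adjusted p = 0.109), which missed the threshold. In the peripheral stalk, which holds the head still, Atp5o, Atp5f1 and Atp5h fell by 0.48, 0.46 and 0.43 (adjusted p = 0.00233, 0.00304 and 0.00585), and Atp5j had -0.35 (adjusted p = 0.0857). With the endothelial covariate Atp5f1 (-0.42, adjusted p = 0.0722) and Atp5h (-0.44, adjusted p = 0.0761) no longer passed, at similar folds. Of the small membrane subunits, Atp5j2 changed by -0.44 (adjusted p = 0.0325). It no longer passed when heterozygote 4 or 5 or knockout 2, 4 or 5 was left out, and its fold was -0.18 without the 3 libraries. The values of Atp5k and Atp5l were -0.27 (adjusted p = 0.357) and 0.16 (adjusted p = 0.697). Atp5l was the only member with a positive value, at 22.1, 13.6, 10.5, 19.2 and 28.6 CPM in the heterozygotes and 27.1, 15.1, 18.8, 20.2 and 24.4 CPM in the knockouts. It is also the member whose count is least certain: 68.5% of its 50-base stretches also occur in 13 other annotated genes, 12 of them pseudogenes, and reads that map to several places are not counted by default.

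Across the members, length went with both the size of the change and its certainty. Of the 18 tested members under 600 bases, 8 fell, 3 with no overlap, and the median log2 fold change was -0.36. That count of 8 was 4 without heterozygote 4 or 5 or knockout 2, 4 or 5, and 10 without heterozygote 3 or knockout 1. Without the 3 libraries named above it was 1, with a median of -0.14, and in the length-adjusted fit the median was -0.23. Among the 26 of at least 600 bases, 19 fell, 18 with no overlap, and the median was -0.50. The short members also varied more between heterozygotes, with a median coefficient of variation of 19.4% against 9.53%. Over the 42 members averaging 10 CPM or more, Spearman's rho between length and log2 fold change was -0.38, given as a description across genes that share the same 10 libraries. The medians of other genes with at least 10 CPM lay nearer to 0. They were -0.12 under 600 bases (109 genes, 9.17% fell), -0.11 from 600 to 1500 bases (1215 genes, 19.2%), -0.05 from 1500 to 3000 bases (2809 genes, 14.1%) and 0.11 above that (4194 genes, 4.41%). Among 1641 other genes with at least 100 CPM, the median was -0.03 and 18.6% fell. In a fit with a length term in each library, 27 members fell, with Atp5e (adjusted p = 0.0260) in place of Cox6a1 (adjusted p = 0.0736), and the median over all tested members was -0.33.

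**Figure D4:**
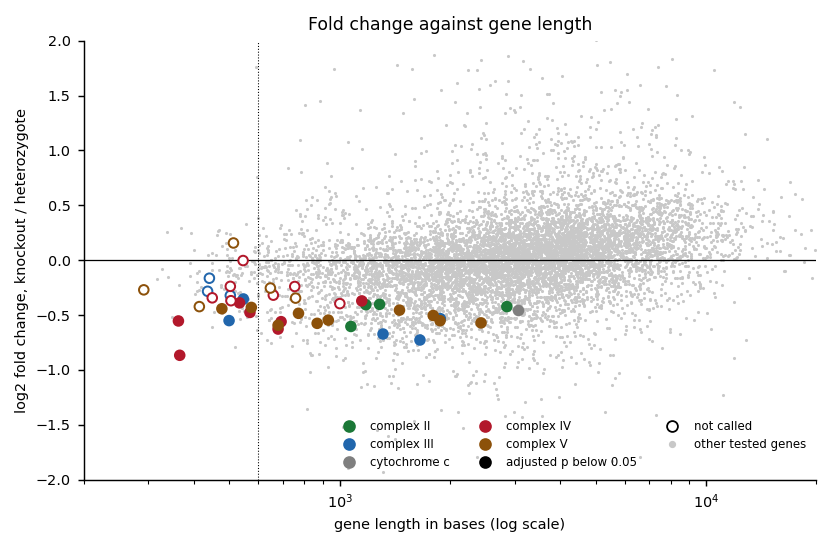
Log2 fold change against gene-model length in bases (log axis), for members by complex and other genes in grey. Only genes averaging 10 CPM or more are shown, and those beyond 2 in either direction are not drawn. Members other than Atp5l lie at or below 0 at both short and long lengths, while the grey points centre near 0.

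**Figure D5:**
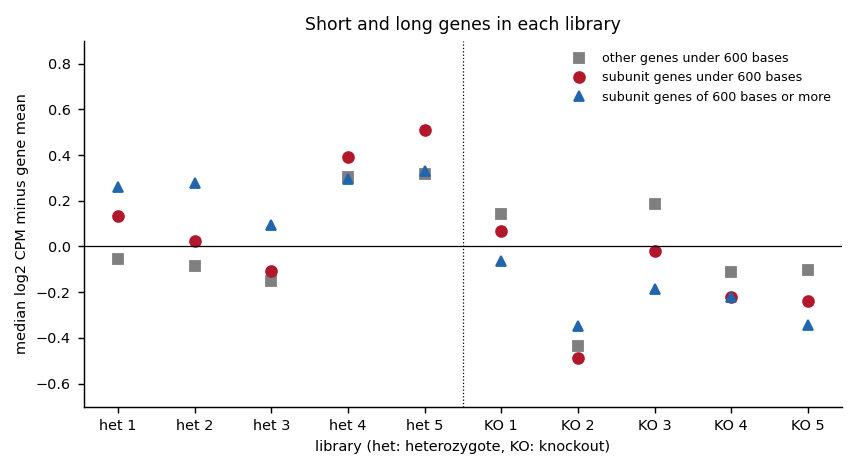
Median log2 deviation in each library of 3 sets: genes under 600 bases that are no members, members under 600 bases, and members of at least 600 bases. Heterozygotes 4 and 5 are high and knockout 2 is low in both short sets, while the longer members lie above 0 in all heterozygotes and below 0 in all knockouts.

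The other genes of the pathway were taken from lists of complex I subunits, assembly factors and regulators. Of 35 tested genes named as complex I subunits, 23 fell and 0 rose, where 8.64% and 10.2% of all tested genes did so. Their median was -0.47, beside -0.44 for the members of complexes II to V. Ndufa4, now counted as a complex IV subunit and outside the name rule, had -0.34 (adjusted p = 0.122). The complex I list, taken by name, still holds its relative Ndufa4l2 (-0.79, adjusted p = 0.173). The ATP synthase subunits Usmg5 and 2010107E04Rik and the inhibitor Atpif1, also outside the name rule, had -0.15, -0.22 and -0.14, and none passed. All 3 have gene models under 600 bases.

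Assembly factors, which help build the complexes without being part of them, were tested as 4 lists. For complex II 0 of 4 passed, for complex III 2 of 4 fell and for the ATP synthase 2 of 4 fell. For complex IV 4 of 13 fell and 1 rose, where 8.64% and 10.2% of all tested genes did so. Bcs1l, which inserts the Rieske protein into complex III, fell by 0.52 (adjusted p = 0.0229). Tmem70, needed for ATP synthase assembly, fell by 0.59 (adjusted p = 0.000987). Cox10, which makes the haem a precursor for complex IV, fell by 0.53 (adjusted p = 0.00979), and Cox19, of the copper pathway, rose by 0.46 (adjusted p = 0.00988).

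Of 15 tested genes for factors that regulate respiratory chain genes, 0 fell and 2 rose, near the 8.64% and 10.2% of all tested genes. The 2 were Esrrg, an estrogen-related receptor, at 0.39 (adjusted p = 0.0457), and Gabpb2, a subunit of GABP, at 0.41 (adjusted p = 0.0362). The coactivators Ppargc1a and Ppargc1b had -0.34 and -0.24, the receptors Esrra and Ppara -0.31 and -0.42, and Nrf1 and Gabpa 0.11 and 0.12, none past the threshold. The related coactivator Pprc1 had 0.41 (adjusted p = 0.0505) and the receptor Esrrb -0.56 (adjusted p = 0.0529), both just short of it. Gabpb1 and Yy1 had 0.06 and 0.17, and the mitochondrial transcription factors Tfb1m and Tfb2m -0.31 and -0.36. Tfam, which packages mitochondrial DNA, had -0.29 (adjusted p = 0.0731). RNA levels do not measure the activity of these factors. Cytosolic ribosomal protein genes, taken by name and most of them below 100 CPM here, had a median of -0.06, with 3 of 77 lower and 0 higher. The list also holds the similarly named Rps19bp1, Rpl7l1 and Rpl22l1. Sequence that its genes share with other places in the genome was not examined, and reads that map to several places are dropped by default.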

How the data were processed

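Deposited values were whole-number read counts per gene, which the authors made with featureCounts 1.5.1 on an mm10 gene annotation, per the file headers, with no option other than 4 threads recorded. By default that setting ignores strand and drops reads that map to several places or several genes. STAR 2.5.3a and Subread 1.5.2, the package that holds featureCounts, are named in the submitters' processing notes. The headers and the notes thus give different versions, and which aligner made the counted alignments is not settled. The table held 14 count columns, of which 10 belong to this series and 4 were not used.

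From the counts, edgeR 4.0.16 (R 4.3.3; filterByExpr with a minimum count of 10 and a minimum total of 15, TMM scaling, quasi-likelihood F test, all 10 libraries, no covariate) gave log2 fold changes, knockout over heterozygote, for 11870 genes, with Benjamini-Hochberg adjusted p below 0.05 as the call. CPM are counts over the TMM-scaled total of tested genes. Each SE is the absolute log2 fold change over the square root of F. Isoform shares were compared by exact permutation tests (SciPy 1.17.1). The fit was tested on simulated data from genes of all levels. It called 76.5% of 2-fold changes and 24% of 0.7-fold changes, in either direction. Of its calls 7.48% were unchanged genes, and with no gene changed it made 0 calls. The simulated counts held no shift shared by the short genes of a library, and 40 of the 44 tested members averaged at least 100 CPM. These rates are therefore not those of the members. A member that did not pass may still have changed. Alternatives were RLE, upper-quartile and library-total scaling, no filter or a mean of at least 5 CPM, DESeq2 1.42.0, a replicate block, an endothelial covariate, a length offset, thinned libraries and leaving out each animal. A further 2 alternatives were added after seeing the data: leaving out 3 libraries, and the length offset with the endothelial covariate. The members and gene lists were chosen with earlier results of these data known. Values for every animal are given for the member with the largest fall that passed and the one with the highest CPM per kilobase in each complex (means of at least 10 CPM), and for the isoform pairs of complex IV; Uqcrfs1 and Atp5l were added after their values were seen. Other members are given by fold change, range or count, and pathway lists by their counts, every regulator, subunits outside the name rule, and the largest call in each direction among assembly factors. Marker lists covered endothelial, fibroblast, smooth muscle and pericyte, immune, erythroid and cardiomyocyte genes. Totals per library ran from 8086656 to 25237696 counts. Pairs of replicates differed by more than counting noise (chi-square per degree of freedom 10.8 to 37.5), so no library was counted as a copy of another. Promoters came from RefSeq (GRCm38.p6).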

Additional observations from a re-analysis of the deposited data

Results flagged for a closer look

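Among 56 sets of 5 animals, the highest or lowest animal stood apart by Dixon's criterion (a gap above 0.71 of the whole range) in 3, and chance gives about 1 in 20. Cox4i2 was at 6.77 CPM in heterozygote 4, with the next heterozygote at 3.19 CPM and a gap of 0.730 of the range. Atp5b was at 8068 CPM in knockout 3, with the next lowest knockout at 8734 CPM and a gap of 0.724. The total count of heterozygote 1 was 25237696, with the next heterozygote at 10309615 and a gap of 0.870.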

How the results depend on the processing

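Against 27 members that fell, RLE scaling gave 27, upper-quartile scaling 28, library totals alone 23, DESeq2 31, the length offset 27 and leaving out each animal 23 to 29; none rose under any setting. Under library totals alone 68.9% of all calls were higher, against 54.3%, and the median of all genes was 0.084. The endothelial covariate gave 16 members (2 in complex II, 3 in complex IV) at median folds as large as without it (-0.40 under 600 bases and -0.52 from 600), and with the length offset 16 (2 in complex II, 3 in complex III, 6 in complex V). Without the 3 libraries 3 fell in complex III and 4 in complex IV. Of the 27, 13 kept their call under all 22 settings and 23 under all 10 that left out 1 animal. The others, with the settings that ended their call, included Cox6a1 (14), Uqcrh (11), Atp5j2 (9) and Cox8b (8); leaving out 1 animal moved adjusted p for Cox8b to 0.0160 to 0.0857 and for Atp5j2 to 0.0155 to 0.0858.

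Same-numbered animals of the 2 groups had deviations that correlated at -0.06 to 0.19, and only pairs 4 and 5 correlated best with their own number. These values do not settle whether replicate numbers mark paired animals. With the replicate block 26 members fell, and the shares of Cox7a1 (-10.9) and Cox8b (-7.71) had an exact p = 0.0625, the smallest 5 pairs allow. Without the 3 libraries the exact p was 0.0571 for Cox7a1 (-12.2) and Cox8b (-6.02), and Cox6a2 moved to 2.03; leaving out each animal gave Cox6a2 -0.35 to 1.16.

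Of the 17 members that did not pass, 5 did so in at least 1 setting: Cox4i2, Atp5e, Cox6b1, Atp5j and Cox7b, with Cox4i2 at 0.0304 by DESeq2 and 0.0402 with the replicate block (adjusted p). Others changed sign as follows. Without the 3 libraries, Uqcr10 had 0.15, Cox7c 0.085, Cox6c 0.17, Atp5k 0.19, Cox7a2 0.085 and Cox8a 0.21. With the endothelial covariate Atp5l had -0.14, and with the length offset as well Uqcr10 had 0.0039, Cox4i2 0.013 and Cox8a 0.029. Cox8a had 0.072 under library totals, 0.0027 without a filter, 0.12 with the length offset, 0.011 in thinned libraries and -0.075 to 0.081 leaving out each animal.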

Other observations

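Some members share sequence with other places in the genome, which matters where reads with several matches are dropped. By 50-base stretches, the share also found in other annotated genes was 68.5% for Atp5l, 47.9% for Atp5h, 43.2% for Uqcrb, 34.0% for Atp5o and 28.5% for Cycs. Of these, Atp5h, Atp5o and Cycs fell and Uqcrb and Atp5l did not pass, so levels of these genes are uncertain beside those of other members. Exons of 4 members overlap another gene in the counted annotation: Atp5f1 with Wdr77, Atp5j with Gabpa, Cox6a2 with Itgad and Uqcrc2 with Pdzd9. Reads in such an overlap cannot be assigned without strand.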
